A study of Homo sapiens with 6 samples.

Results

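Mitochondrial ribosomal protein genes were examined in TC28a2 cells, an immortalized human chondrocyte line, after treatment with mocetinostat, a class I HDAC inhibitor. Their mRNAs were lower after mocetinostat treatment in most cases. Of the 74 genes that could be tested, 48 fell and 1, *MRPL17*, rose, whereas 31.4% of all genes tested fell and 32.9% rose. With libraries scaled to *GAPDH* instead, 13 of the 74 fell and 13 rose, whereas 9.82% of all genes tested fell and 55.2% rose. The genes were chosen by name only, as every row of the count table called MRPL or MRPS followed by a number and at most one of the letters A to C, and 78 of 60623 rows met this rule. Another 75 rows with such names were pseudogenes, which held 261 counts in all over the 6 samples, and 3 were antisense or other transcripts. Both kinds were left out.

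RNA-Seq was performed on 6 samples, 3 of cells given 2 μM mocetinostat for 24 hours and 3 of cells given the solvent DMSO for the same time. All samples came from this 1 cell line and were described by the study as independent experiments. Values were whole read counts per gene, with totals from 4873426 to 11031132 in the DMSO-treated samples and from 1619344 to 5089542 in the mocetinostat-treated samples, so the precision for rare mRNAs was lower in the latter. The summed level of 14 chondrocyte genes was 127 to 148 counts per 1000000 (CPM) with DMSO and 274 to 316 CPM with mocetinostat. *SOX9* alone measured 102, 122, and 95.5 CPM in DMSO replicates 1, 2, and 3, so most of the DMSO sum came from 1 gene. Each of the 14 had counts in at least 1 DMSO-treated sample, but several were near 0. *SOX6*, *COL9A1*, *COL11A1*, and *PRG4* had too few counts to be tested. The summed level of 9 markers of other cell types was 3.44 to 6.46 CPM with DMSO and 43.1 to 52.7 CPM with mocetinostat. *CD68* and *HBB* were at 3 counts or fewer in every sample, and the epithelial and endothelial markers *EPCAM*, *CDH1*, *VWF*, and *PECAM1* rose. The part of these marker levels in the results below was not tested. In bulk RNA, fewer cells of a type and less RNA per cell cannot be told apart.

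Mitochondria carry a small genome of their own, and the mRNAs transcribed from it are translated inside the organelle by the mitoribosome into core subunits of the respiratory chain complexes and the ATP synthase. The RNA of the mitoribosome is encoded in mitochondrial DNA, whereas all of its proteins are encoded in the nucleus, made in the cytosol, and imported. Some of these proteins descend from those of the bacterial ribosome, and others occur in the mitochondrial ribosome only. In cartilage, chondrocytes rely largely on glycolysis, and altered mitochondrial function is a known feature of osteoarthritic chondrocytes.

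Of the 78 genes, 26 encode proteins of the small subunit (SSU), 16 of them with a bacterial counterpart, and 51 encode proteins of the large subunit (LSU), 30 of them with a bacterial counterpart. *MRPS36*, the remaining gene, carries a ribosomal name but encodes a component of the oxoglutarate dehydrogenase complex. Levels between genes were compared per kilobase of the main transcript. With DMSO, the median over the 78 genes was 31.9 CPM per kilobase, with an interquartile range of 15.1 to 56.1. *MRPL51*, *MRPS34*, and *MRPS26*, whose proteins have no bacterial counterpart, were the most abundant on this scale. They measured 165 ± 8.75, 135 ± 25.4, and 129 ± 23.6 CPM per kilobase (SD, n = 3) with DMSO and 105 ± 18.4, 89.1 ± 18.2, and 83.8 ± 3.69 CPM per kilobase (SD, n = 3) with mocetinostat. The spread between replicates of *MRPS34* and *MRPS26* covers the difference between their levels, so these neighbours cannot be ordered. *MRPL51* and *MRPS34* share 27.6% and 31.2% of their exon bases with a gene on the opposite strand. Whether counting used strand is not stated in the sources used here, so their levels may be affected by this overlap. At the other end, *MRPL53* had 0 counts in all 6 samples. *MRPL53* shares 72.8% of its exon bases with *CCDC142* on the same strand, and a read that falls in the exons of more than 1 gene may not be assigned to either. *MRPL38* and *MRPS17* were next, at 1.79 ± 0.697 and 0.78 ± 0.61 CPM per kilobase (SD, n = 3) with DMSO, and share 41.1% and 22.4% of their exon bases with another gene on the same strand. In all, 6 genes had a mean under 6 CPM, and 5 of these had at least 20% of their exon bases shared in this way. For them a low value cannot be told apart from reads lost to the overlap. *MRPL53*, *MRPL38*, *MRPS17*, and *MRPL23* did not pass the filter on low counts, which left 74 genes.

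Counts were compared between conditions by the quasi-likelihood test of edgeR, and Benjamini-Hochberg adjustment covered all 13966 genes tested. At an adjusted p under 0.05, 48 of the 74 genes (64.9%) were lower after mocetinostat treatment, against 31.4% of all genes tested, and 1 was higher, against 32.9% of all genes tested. The remaining 25 genes did not pass the test. With the study's further requirement of an absolute log2 fold change over 1, 12 were downregulated genes (DRGs), where 8.18% of all genes tested were DRGs, and 0 were upregulated genes (URGs), where 20.2% of all genes tested were URGs. The highest log2 fold change among them was 0.43, and DESeq2 likewise gave 0 URGs. The median log2 fold change of the 74 genes was -0.59, compared with -0.002 over all genes tested, whose interquartile range was -0.51 to 0.74. Values of the 74 genes lay between -1.51 and 0.43, with an SD between genes of 0.43 and a median standard error (SE) per gene of 0.14. Every mocetinostat-treated sample lay below every DMSO-treated sample in CPM in 52 genes, against 32.8% of all genes tested, and above in 1 gene, against 33.7%.

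These counts depend on how the samples were scaled. *GAPDH*, a common reference gene, itself fell, with 3132, 3032, and 2953 CPM in DMSO replicates 1, 2, and 3 and 2034, 2187, and 2111 CPM in mocetinostat replicates 1, 2, and 3 (log2 fold change -0.53, SE 0.06, edgeR adjusted p = 2.58e-12). With every library set to an equal *GAPDH* count (*GAPDH* scaling), the median over all genes tested moved to 0.53. The median of the mitochondrial ribosomal protein genes moved to -0.06, and 13 of them fell and 13 rose. Of all genes tested, 9.82% fell and 55.2% rose with this scaling. The distance between both medians was -0.59 with *GAPDH* scaling, size factors, or library size alone. Rescaling the libraries moves every gene by nearly the same amount, so this distance was bound to stay about the same. The results are therefore given relative to the other mRNAs of the same cells, and not as amounts per cell.

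**Figure D1:**
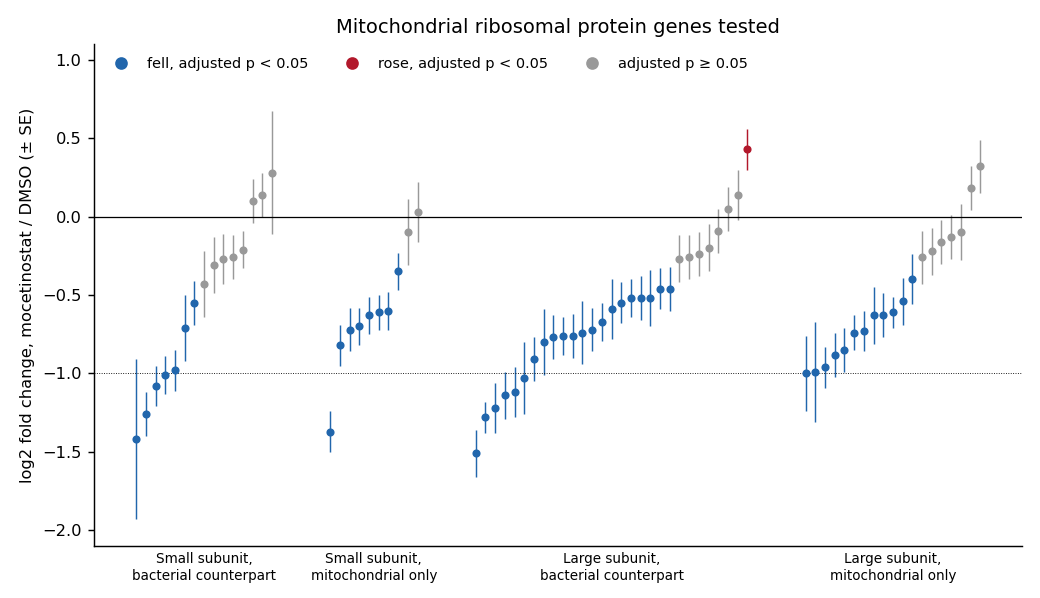
Log2 fold change of the tested genes whose proteins belong to the mitoribosome, mocetinostat over DMSO (y axis, bars ± SE), ordered within 4 structural classes on the x axis, with *MRPS36* left out. Points are coloured by the call of edgeR's quasi-likelihood test, and the dotted line marks a log2 fold change of -1. Each class spreads from about 0 or above to -1 or below, and *MRPL17* (0.43) is the only gene that rose. Under *GAPDH* scaling 13 genes rose and 13 fell, against 55.2% and 9.82% of all genes tested.

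Genes of both subunits were lowered to a similar extent. Among the SSU genes, 15 of 25 tested fell and 0 rose (also 0 at an unadjusted p under 0.05 and 0 with DESeq2), with a median log2 fold change of -0.60, and among the LSU genes, 33 of 48 tested fell and 1 rose, also with a median of -0.60 (both -0.06 to -0.07 with *GAPDH* scaling). Of the SSU genes with a bacterial counterpart, 7 of 15 fell, with a median of -0.43, a value that became 0.11 with *GAPDH* scaling. Of the SSU genes without one, 8 of 10 fell, with a median of -0.62. The corresponding LSU classes had 21 of 29 and 12 of 19 genes that fell, with medians of -0.59 and -0.61. With *GAPDH* scaling the median was -0.09 for the SSU genes without a bacterial counterpart and -0.05 and -0.08 for the LSU classes. That of all genes tested was then 0.53. Differences between these classes were not tested.

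The summed level of the LSU genes was 2592, 2581, and 2610 CPM in DMSO replicates 1, 2, and 3 and 1728, 1745, and 1771 CPM in mocetinostat replicates 1, 2, and 3. That of the SSU genes was 1476, 1504, and 1528 CPM with DMSO and 966, 1007, and 1006 CPM with mocetinostat. Every mocetinostat-treated sample was thus below every DMSO-treated sample in both sums, which came to 67.4% and 66.1% of the DMSO level. The exact two-sided permutation p was 0.1 for either sum, the smallest that 3 samples against 3 can give. With *GAPDH* scaling the log2 fold changes of the sums were -0.04 and -0.07 instead of -0.57 and -0.60. The ratio of the LSU sum to the SSU sum was 1.76, 1.72, and 1.71 with DMSO and 1.79, 1.73, and 1.76 with mocetinostat, values that overlapped between conditions (exact two-sided permutation p = 0.2). As a share of all counts, the 78 genes made up 0.404% to 0.409% of each DMSO-treated sample and 0.268% to 0.278% of each mocetinostat-treated sample.

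**Figure D2:**
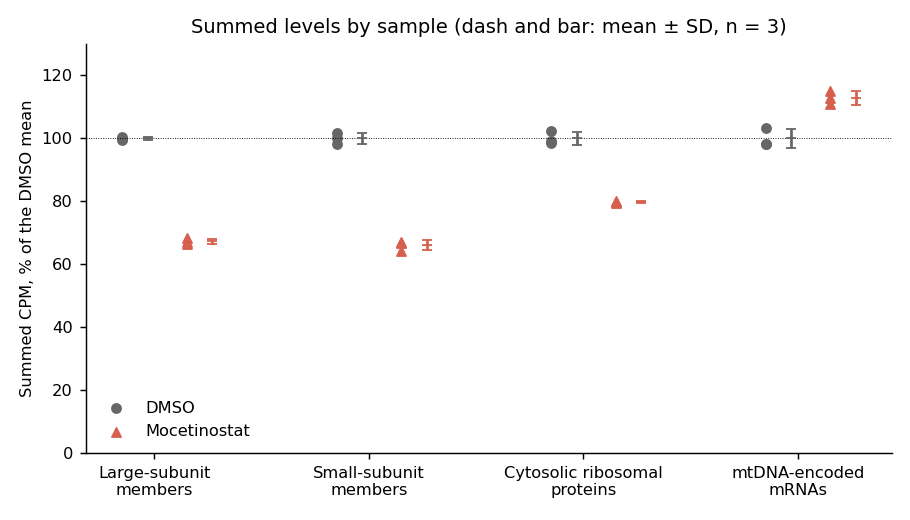
Summed CPM of 4 gene groups in each sample, as a percentage of the DMSO mean (y axis, starting at 0), with circles for DMSO, triangles for mocetinostat, and a dash and bar for the mean ± SD (n = 3). The LSU and SSU sums fell to 67.4% and 66.1%, and the cytosolic ribosomal protein sum to 79.8%. The sum of the mRNAs encoded in mitochondrial DNA stood at 113%. With *GAPDH* scaling the cytosolic sum was higher with mocetinostat, with a log2 fold change of 0.20, where the median over all genes tested was 0.53.

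The 12 DRGs came from both subunits, 5 from the SSU and 7 from the LSU. *MRPL9* (ENSG00000143436, chromosome 1 of GRCh38 from 151759647 to 151763496), an LSU gene with a bacterial counterpart, had the largest decrease of all. It measured 70.2, 70.2, and 77.8 CPM in DMSO replicates 1, 2, and 3 and 21.4, 22.3, and 34.4 CPM in mocetinostat replicates 1, 2, and 3. Its log2 fold change was -1.51 (SE 0.15, edgeR adjusted p = 1.62e-14), or 35.2% of the DMSO level. *MRPL9* shares 15.2% of its exon bases with a gene on the opposite strand and 6.49% with another on the same strand. *MRPL3* (ENSG00000114686, chromosome 3 from 131462212 to 131502983), an LSU gene in which inherited mutations cause combined oxidative phosphorylation deficiency, was the most abundant of the 12. It measured 176, 163, and 161 CPM with DMSO and 68.4, 63.2, and 73.4 CPM with mocetinostat. The replicates of each condition lay close together, and the log2 fold change was -1.28 (SE 0.10, edgeR adjusted p = 6.18e-18). *MRPL3* shares 9.36% of its exon bases with a gene on the opposite strand. *MRPS35* (ENSG00000061794, chromosome 12 from 27710822 to 27756295), whose SSU protein occurs in mitochondria only, measured 86, 86.2, and 78.3 CPM with DMSO and 34.5, 33.5, and 28.2 CPM with mocetinostat. Its log2 fold change was -1.37 (SE 0.13, edgeR adjusted p = 1.34e-14). These 3 genes also passed glmTreat of edgeR, which tests against a log2 fold change of 1 rather than 0, with adjusted p values of 0.000808 for *MRPL9*, 0.00617 for *MRPL3*, and 0.00537 for *MRPS35*, and the other 9 did not.

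Further DRGs encode proteins near the centers where tRNAs are bound and peptides are made. *MRPS7* (ENSG00000125445, chromosome 17 from 75261674 to 75266376) encodes a protein of the SSU head along the tRNA path, and measured 68, 69.3, and 70.6 CPM with DMSO and 26.8, 34.7, and 27.8 CPM with mocetinostat. *MRPL16* (ENSG00000166902, chromosome 11 from 59806140 to 59810778), the counterpart of a bacterial protein next to the site where aminoacyl-tRNA is accommodated, measured 44.4, 48.3, and 56.6 CPM with DMSO and 21.6, 26, and 17.4 CPM with mocetinostat. *MRPL27* (ENSG00000108826, chromosome 17 from 50367857 to 50373207), whose bacterial counterpart reaches into the peptidyl transferase center, measured 47.5, 49.1, and 41.1 CPM with DMSO and 21.6, 22.9, and 19.1 CPM with mocetinostat. In each of these 3 genes, the lowest DMSO-treated sample was above the highest mocetinostat-treated sample by a wide margin. Their log2 fold changes were -1.26 (SE 0.14, edgeR adjusted p = 1.76e-12), -1.22 (SE 0.16, edgeR adjusted p = 5.5e-10), and -1.12 (SE 0.16, edgeR adjusted p = 6.04e-09).

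*MRPL35*, *MRPS15*, and *MRPS2* are structural genes with bacterial counterparts. *MRPL35* (chromosome 2 from 86199355 to 86213790) measured 52.3, 44.4, and 53.8 CPM with DMSO and 23.2, 20.5, and 24 CPM with mocetinostat. *MRPS15* (chromosome 1 from 36455718 to 36464384) measured 78.1, 80, and 78.1 CPM with DMSO and 37.3, 34.7, and 39 CPM with mocetinostat. *MRPS2* (chromosome 9 from 135499984 to 135504673) measured 90.4, 106, and 86.2 CPM with DMSO and 47.8, 50.2, and 42.7 CPM with mocetinostat. The conditions were again well separated, at 45.3%, 47.3%, and 49.8% of the DMSO level. The log2 fold changes were -1.14, -1.08, and -1.01, with edgeR adjusted p = 1.03e-09, 3.04e-11, and 7.28e-11. *MRPS2*, close to the threshold of fold change, was at -0.95 without DMSO replicate 2 and -0.96 without mocetinostat replicate 3, and was then not a DRG. It shares 10.1% of its exon bases with a gene on the opposite strand.

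The last 3 DRGs were measured at low counts. *MRPL12*, which encodes the stalk protein through which translation factors are recruited to the LSU, measured 21.5, 20.2, and 17.7 CPM with DMSO and 8.13, 6.82, and 14.5 CPM with mocetinostat (log2 fold change -1.03, SE 0.23, edgeR adjusted p = 9.52e-05). It shares 69.5% of its exon bases with another annotated gene on the same strand. *MRPL54*, an LSU gene found in mitochondria only, measured 17.6, 19.4, and 20.3 CPM with DMSO and 6.34, 11.2, and 13.3 CPM with mocetinostat (49.9% of the DMSO level, just past the threshold of fold change, SE 0.24 on the log2 scale, edgeR adjusted p = 0.000189). Both *MRPL12* and *MRPL54* had no overlap between conditions. Their place among the DRGs rested on single samples, since without mocetinostat replicate 1 the log2 fold changes were -0.83 for *MRPL12* and -0.63 for *MRPL54* (edgeR adjusted p = 0.00969 and 0.0381). *MRPL12* was also above -1 without mocetinostat replicate 2 (-0.93) or DMSO replicate 1 (-0.97), and *MRPL54* without DMSO replicate 3 (-0.98). With thinned libraries neither passed the test (adjusted p of 0.277 and 0.26). *MRPS24*, which encodes a protein of the SSU head, was rare, with read counts of 46, 29, and 23 for DMSO against 8, 1, and 6 for mocetinostat. Its log2 fold change was -1.42 with a SE of 0.51 (edgeR adjusted p = 0.0117), and 23.2% of its exon bases belong also to the read-through gene *URGCP-MRPS24*. Without DMSO replicate 2 or mocetinostat replicate 1, the adjusted p of *MRPS24* was 0.0548 or 0.0644, so this call rested on single samples.

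**Figure D3:**
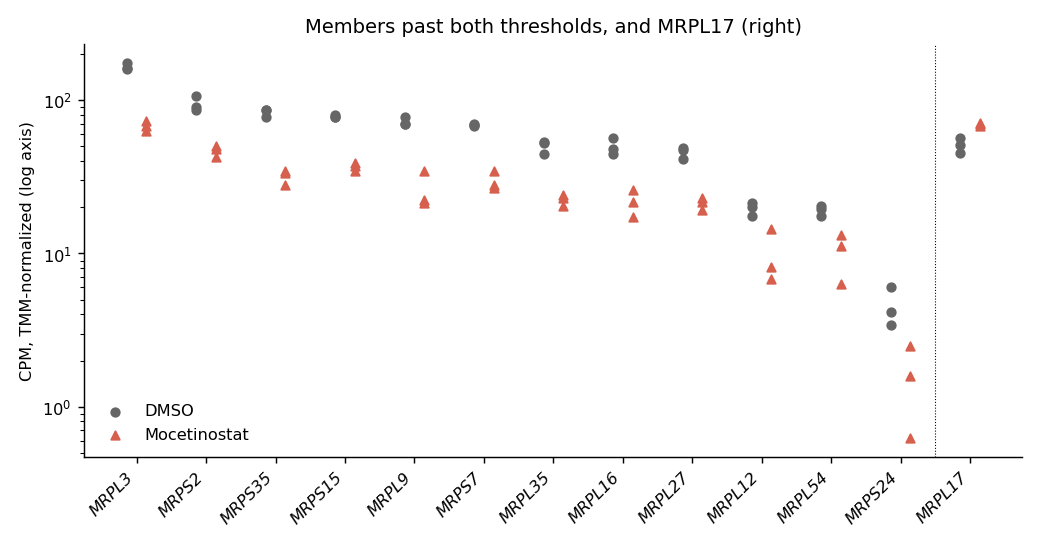
TMM-normalized CPM (log axis) of the 12 DRGs and, to the right of the dotted line, of *MRPL17* in each sample, with circles for DMSO and triangles for mocetinostat (3 samples each). In all 12 DRGs every triangle lies below every circle, with the smallest values in *MRPS24* (0.62 to 2.49 CPM with mocetinostat), and in *MRPL17* every triangle (67.8 to 71.3 CPM) lies above every circle (45.6 to 56.7 CPM).

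*MRPL17* (ENSG00000158042, chromosome 11 from 6680385 to 6683340), the counterpart of a bacterial protein around the peptide exit tunnel of the LSU, was the only gene that rose. It measured 51.4, 45.6, and 56.7 CPM in DMSO replicates 1, 2, and 3 and 67.8, 71.3, and 70 CPM in mocetinostat replicates 1, 2, and 3. All mocetinostat-treated samples were above all DMSO-treated samples, with a log2 fold change of 0.43 (SE 0.13, edgeR adjusted p = 0.00191). Of the 6 genes of the exit tunnel that were tested, *MRPL17* included, 4 fell and 1 rose, with values from -0.88 to 0.43. Among all genes tested, 31.4% fell and 32.9% rose, and nothing particular to the site is read from so few genes. The call on *MRPL17* was lost without an expression filter (log2 fold change 0.18, edgeR adjusted p = 0.361) and after thinning every library down to the lowest total (0.34, edgeR adjusted p = 0.18).

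Several genes of one structural site differed in their response. The stalk of the LSU is built from the products of *MRPL10*, *MRPL11*, and *MRPL12*. *MRPL11* measured 59.4, 66.2, and 69.3 CPM with DMSO and 31.9, 38.4, and 34.8 CPM with mocetinostat and fell (log2 fold change -0.91, SE 0.14, edgeR adjusted p = 2.1e-08). *MRPL10*, whose product anchors *MRPL12* to the ribosome, measured 43.2, 38.7, and 43.5 CPM with DMSO and 46.8, 41.5, and 40.6 CPM with mocetinostat. The samples of *MRPL10* overlapped between conditions, and its log2 fold change was 0.05 (SE 0.14, edgeR adjusted p = 0.76), with values from -0.20 to 0.59 under other settings. Thus, of the genes of 1 stalk, 2 fell and 1 did not pass the test. No test of the difference between them was made.

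Of the 8 genes of the SSU head, 4 fell and 0 rose, with values from -1.42 to 0.10. These counts, of few genes, stand beside the 31.4% of all genes tested that fell, and nothing particular to the site is read from them. In the central protuberance, a landmark of the LSU, 2 of 4 tested genes fell, with values from -0.99 to -0.16, and the same holds.

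The paralogs *MRPS18A*, *MRPS18B*, and *MRPS18C* encode relatives of a single bacterial protein that occupy different places in the mitoribosome, that of *MRPS18A* in the LSU and the others in the SSU. *MRPS18C* takes the place of the bacterial protein, and *MRPS18A* and *MRPS18B* were counted here with the genes that have no bacterial counterpart. *MRPS18B* measured 62.7, 70.2, and 62.5 CPM with DMSO and 36.9, 28.5, and 51.4 CPM with mocetinostat and fell (log2 fold change -0.72, SE 0.14, edgeR adjusted p = 7.2e-06). *MRPS18C* measured 28.1, 27.3, and 22.8 CPM with DMSO and 10.5, 22.9, and 19.1 CPM with mocetinostat (log2 fold change -0.71, SE 0.21, edgeR adjusted p = 0.00195). The conditions touched in *MRPS18C*, and without mocetinostat replicate 1, its lowest sample, the log2 fold change was -0.34 with an adjusted p of 0.184. *MRPS18A* measured 33.6, 37.9, and 39.9 CPM with DMSO and 30.7, 30.4, and 34.4 CPM with mocetinostat, and did not pass the test (log2 fold change -0.22, edgeR adjusted p = 0.213). *MRPS18A* and *MRPS18C* share 50.9% and 40.2% of their exon bases with a gene on the opposite strand, and the sources used here do not state whether counting used strand.

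*MRPL58*, which encodes a peptidyl-tRNA hydrolase that rescues stalled mitoribosomes and is built into the LSU, measured 24.6, 30, and 30.9 CPM with DMSO and 17.2, 18.6, and 19.5 CPM with mocetinostat (log2 fold change -0.63, edgeR adjusted p = 0.00209). *MRPS36*, the gene outside the ribosome, measured 15.5, 10, and 11.3 CPM with DMSO and 8.33, 13, and 7.05 CPM with mocetinostat. Its conditions overlapped (log2 fold change -0.48, SE 0.26, edgeR adjusted p = 0.104), and without DMSO replicate 2 or mocetinostat replicate 2 the adjusted p was 0.0477 or 0.0288.

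In 3 of the structural classes, the highest value belonged to a gene that did not pass the test. *MRPL57* measured 22.8, 29.4, and 28.7 CPM with DMSO and 35.3, 26, and 36.1 CPM with mocetinostat, with overlap between conditions (log2 fold change 0.32, SE 0.17, edgeR adjusted p = 0.0881); without mocetinostat replicate 2 it was 0.40, with an adjusted p of 0.0404. *MRPS33* measured 22.2, 25.6, and 17.8 CPM with DMSO and 20.8, 30.4, and 17.8 CPM with mocetinostat (log2 fold change 0.03, edgeR adjusted p = 0.903). *MRPS28* held between 6 and 42 counts per sample (log2 fold change 0.28, SE 0.39, edgeR adjusted p = 0.545), a SE that does not resolve a change of the size seen in most other genes.

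The share of genes that fell was about the same among genes free of exon overlap and among well-counted genes. Among the 42 tested genes with less than 5% of their exon bases shared with any other gene on either strand, a criterion added after the data were seen, 27 fell (64.3%), 1 rose, and 7 were DRGs, with a median log2 fold change of -0.59. Among the 63 genes with a mean of at least 50 counts in each condition, 41 fell (65.1%), with a median of -0.55.

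The promoters of these genes were examined for the motifs of factors known to act on nuclear genes of mitochondrial function: NRF1, the ETS family that includes GABPA (also called NRF-2), and YY1. RefSeq promoter windows of GRCh38.p14, from 250 bases before to 50 bases after the start, were matched by symbol for 69 of the 78 genes. The letters CCGGAAG, the core of the ETS motif, were present on either strand in 29 of the 69 windows (42%), compared with 10.7% of all 27305 windows and 14.2% of those of protein-coding genes. The YY1 letters AANATGGCG were present in 18 (26.1%, compared with 3.37% and 4.81%), and in 16 of these a match lay at or after the start. The NRF1 letters, GCGCA and GCGC with 1 base of any kind between them, were present in 8 (11.6%, compared with 6.28% and 8.58%). At least 1 of the 3 was present in 47 windows (68.1%, compared with 17.9% of all and 24.2% of protein-coding windows), whereas the TATA letters TATAAA were present in 2 (2.9%, compared with 12% and 9.63%). These motifs were counted separately and may overlap in a window. A match of letters is a description and not a measured binding site.

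Stretches of 100 bases upstream of the RefSeq start, on the strand of the gene and with the motif in capitals, are shown for a gene that fell strongly and an abundant gene that fell, both with the ETS letters, and for the gene that rose and a gene that did not pass the test, both with the NRF1 letters. In *MRPS26* the ETS letters and in *MRPS9* the NRF1 letters are on the reverse strand, so that their capitals show the reverse complement. *MRPS9* was chosen after its values were seen.
MRPL3, chr3:131502972-131503071, minus strand: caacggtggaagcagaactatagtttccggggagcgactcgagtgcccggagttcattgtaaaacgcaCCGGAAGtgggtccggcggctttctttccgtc
MRPS26, chr20:3045952-3046051, plus strand: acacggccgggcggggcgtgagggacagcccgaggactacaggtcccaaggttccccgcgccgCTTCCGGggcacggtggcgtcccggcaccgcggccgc
MRPL17, chr11:6683341-6683440, minus strand: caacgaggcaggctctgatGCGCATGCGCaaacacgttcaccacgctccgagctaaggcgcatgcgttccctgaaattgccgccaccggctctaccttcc
MRPS9, chr2:105037969-105038068, plus strand: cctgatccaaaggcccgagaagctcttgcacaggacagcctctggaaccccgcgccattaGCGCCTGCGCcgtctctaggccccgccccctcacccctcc

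Genes with and without the ETS letters were lowered to a similar extent, with 18 of 27 and 27 of 39 tested genes that fell and medians of -0.60 and -0.67. The same was true of the YY1 letters, with 12 of 17 and 33 of 49 genes that fell and medians of -0.59 and -0.61. Of the 8 genes with the NRF1 letters, 2 fell, with a median of 0.07, whereas 43 of the 58 genes without them fell, with a median of -0.63. These 8 genes, named here after their values were seen, were *MRPL45* (-0.88), *MRPL30* (-0.52), *MRPL36* (-0.09), *MRPS33* (0.03), *MRPS9* (0.10), *MRPL14* (0.14), *MRPL57* (0.32), and *MRPL17* (0.43). The difference between genes with and without a motif was noticed in these data and was not tested.

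Besides the genes of the rule, 5 further genes encode subunits of the mitoribosome under other names. Of these, 4 fell and 0 rose, against 31.4% and 32.9% of all genes tested. With *GAPDH* scaling, 0 fell and 1, *DAP3*, rose, against 9.82% and 55.2% of all genes tested. *PTCD3* measured 124, 114, and 106 CPM with DMSO and 65, 50.8, and 77.9 CPM with mocetinostat (log2 fold change -0.81, SE 0.12, edgeR adjusted p = 7.12e-09). *AURKAIP1* and *GADD45GIP1* fell by 0.75 and 0.72 on the log2 scale (edgeR adjusted p = 2.6e-07 and 1.9e-08). *CHCHD1* was at -0.37 (edgeR adjusted p = 0.0408), a call at the edge of the threshold. It was lost without any of 3 single samples, with values from -0.24 to -0.39 and adjusted p from 0.0669 to 0.293, and with size factors (adjusted p 0.0535), library size alone (0.0529), the replicate block (0.0512), DESeq2 (0.135), a minimum of 10 counts per sample (0.107), and thinning (0.796). The exception was *DAP3*, the GTP-binding subunit, also known for a role in apoptosis, which measured 73.4, 63.3, and 67.1 CPM with DMSO and 76.3, 66.3, and 81.2 CPM with mocetinostat, with overlap between conditions (log2 fold change 0.14, SE 0.12, edgeR adjusted p = 0.3, against 0.68 and an adjusted p of 7.5e-06 with *GAPDH* scaling).

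Genes that act on mitochondrial RNA and the mitoribosome were also lower in most cases. The lists were those of the other subunits, translation factors, assembly factors, transcription and mRNA factors, aminoacyl-tRNA synthetases, and biogenesis regulators. Of their 80 tested genes, 55 fell (68.8%) and 5 rose, against 31.4% and 32.9% of all genes tested. The same shares of all genes stand beside the counts of the single lists below. Beside the counts with *GAPDH* scaling stand 9.82% of all genes that fell, 55.2% that rose, and a median of 0.53. The transcription and mRNA factors were the list in which every tested gene fell, 13 of 13, with a median log2 fold change of -0.83 and values from -1.14 for *MTPAP*, the mitochondrial poly(A) polymerase, to -0.25 for *TFAM*, which packages mitochondrial DNA. Of these 13, 5 fell and 2 rose with *GAPDH* scaling, *TFAM* among the latter. *TFAM* measured 125, 118, and 122 CPM with DMSO and 105, 96.1, and 105 CPM with mocetinostat, and without mocetinostat replicate 2 its adjusted p was 0.0577.

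The assembly factors had 14 of 24 tested genes that fell and 1 that rose, with a median of -0.61 (9 that fell and 6 that rose, with a median of -0.08, under *GAPDH* scaling). *RCC1L*, a guanine nucleotide exchange factor of mitoribosome assembly, measured 69.6, 62.3, and 68.7 CPM with DMSO and 19.6, 26, and 19.9 CPM with mocetinostat (log2 fold change -1.66, SE 0.15, edgeR adjusted p = 3.55e-16). *TFB1M*, a methyltransferase of the small-subunit RNA, moved the other way, with 16.6, 12.3, and 13.7 CPM with DMSO and 22, 22.9, and 31.5 CPM with mocetinostat (log2 fold change 0.80, SE 0.20, edgeR adjusted p = 0.000319). The samples of *RCC1L* and *TFB1M* did not overlap between conditions. *TFB1M* shares 30.7% of its exon bases with a gene on the opposite strand and 14.4% with another on the same strand. *RCC1L* shares 22.8% with a gene on the opposite strand, and whether counting used strand is not stated.

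The translation factors had 7 of 13 tested genes that fell and 1 that rose, with a median of -0.44 (1 that fell and 3 that rose, with a median of 0.09, under *GAPDH* scaling). *TACO1*, the translational activator of the mRNA of cytochrome c oxidase subunit I, measured 36.4, 29.6, and 33.6 CPM with DMSO and 10.5, 7.44, and 9.53 CPM with mocetinostat (log2 fold change -1.80, SE 0.20, edgeR adjusted p = 3.23e-12). *MTRF1L*, a release factor, was at 0.39 (edgeR adjusted p = 0.0191), which was lost without DMSO replicate 1 (0.27, edgeR adjusted p = 0.12) or mocetinostat replicate 2 (0.26, edgeR adjusted p = 0.155). *MTRF1L* shares 37.8% of its exon bases with a gene on the opposite strand. Among the mitochondrial aminoacyl-tRNA synthetases, 11 of 16 tested genes fell and 1 rose, with a median of -0.64 (2 fell and 3 rose, with a median of -0.11, under *GAPDH* scaling). The lowest was *SARS2*, for serine, with 7.69, 7.08, and 8.25 CPM with DMSO and 0.991, 6.82, and 1.66 CPM with mocetinostat (log2 fold change -1.69, SE 0.43, edgeR adjusted p = 0.000409). The mocetinostat-treated samples of *SARS2* varied widely, and without mocetinostat replicate 1 its log2 fold change was -1.02 with an adjusted p of 0.0568, whereas without mocetinostat replicate 2 it was -2.66. *SARS2* shares 48.2% of its exon bases with another gene on the same strand. The highest was *PARS2*, for proline, at 0.77 (edgeR adjusted p = 0.0257), with overlap between conditions and adjusted p between 0.0691 and 0.149 without any of 4 single samples.

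**Figure D4:**
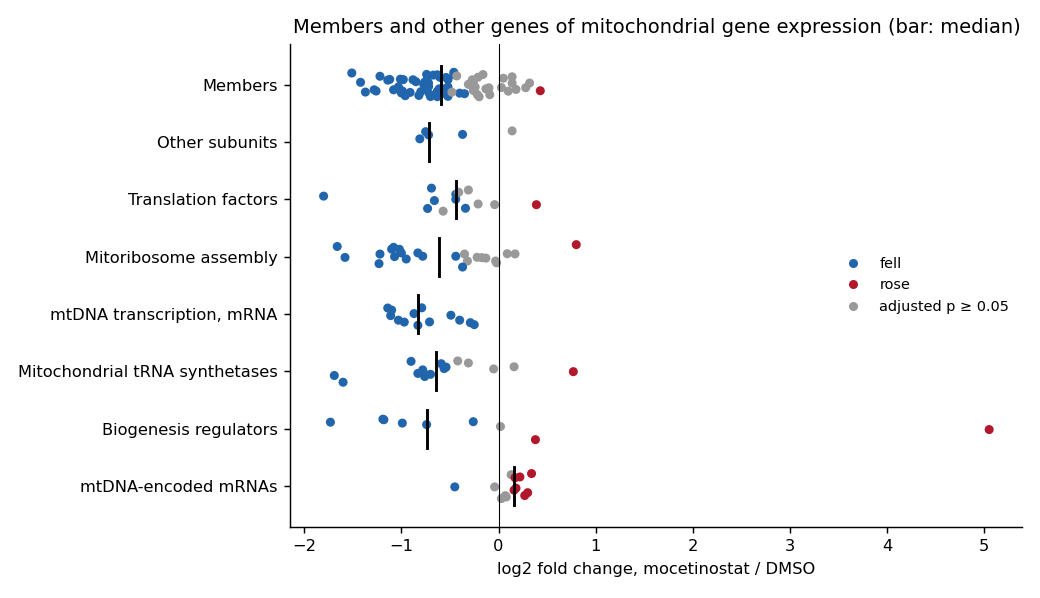
Log2 fold change, mocetinostat over DMSO (x axis), of the 74 tested genes of the rule (Members) and of 7 lists of other genes of mitochondrial gene expression (y axis), with 1 point per gene, coloured by the call of edgeR's quasi-likelihood test, and a bar at the median of each list. Medians of the nuclear lists lie between -0.44 and -0.83 and that of the mRNAs encoded in mitochondrial DNA at 0.16. *PPARGC1A* (5.05) stands far to the right. With *GAPDH* scaling all medians moved up, that of the translation factors to 0.09 and that of all genes tested to 0.53.

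Regulators of mitochondrial biogenesis went in both directions, with 6 of 9 tested genes that fell and 2 that rose (4 and 4 with *GAPDH* scaling). Of all genes tested, 31.4% fell and 32.9% rose (9.82% and 55.2% with *GAPDH* scaling). *PPARGC1A*, which encodes the coactivator PGC-1α, had raw counts of 10, 4, and 1 under DMSO against 103, 42, and 53 under mocetinostat (log2 fold change 5.05, SE 0.37, edgeR adjusted p = 5.68e-20). In contrast, the transcription factor *NRF1* measured 25.9, 23.9, and 31.1 CPM with DMSO and 8.33, 8.68, and 7.46 CPM with mocetinostat (log2 fold change -1.73, SE 0.22, edgeR adjusted p = 1.86e-10). *GABPA*, which encodes the DNA-binding subunit of NRF-2, measured 35.2, 38.1, and 40.8 CPM with DMSO and 16.1, 16.7, and 17.8 CPM with mocetinostat (log2 fold change -1.18, SE 0.17, edgeR adjusted p = 1.54e-08). These factors and the coactivator thus moved in opposite directions. The PGC-1-related coactivator gene *PPRC1* measured 147, 178, and 178 CPM with DMSO and 78.5, 74.4, and 65.1 CPM with mocetinostat (log2 fold change -1.19, SE 0.11, edgeR adjusted p = 3.42e-16). *MYC*, which activates ribosome production, was at -0.26 (edgeR adjusted p = 0.011), a call that was lost without mocetinostat replicate 2 (-0.20, edgeR adjusted p = 0.0715) and that turned to 0.27 with *GAPDH* scaling.

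The mRNAs that the mitoribosome translates, encoded in mitochondrial DNA, did not fall with the genes of its proteins. Of the 13 protein-coding genes of mitochondrial DNA, 7 rose and 1 fell, against 32.9% and 31.4% of all genes tested. Their median log2 fold change was 0.16. Their summed level was 29225, 30752, and 29205 CPM in DMSO replicates 1, 2, and 3 and 32949, 33511, and 34224 CPM in mocetinostat replicates 1, 2, and 3. Every mocetinostat-treated sample was higher than every DMSO-treated sample, at 113% of the DMSO level (exact two-sided permutation p = 0.1, the smallest possible). *MT-ATP8*, at the upper end, measured 120, 147, and 138 CPM with DMSO and 155, 174, and 185 CPM with mocetinostat (log2 fold change 0.34, SE 0.10, edgeR adjusted p = 0.00158). It shares 22.2% of its exon bases with *MT-ATP6* on the same strand, which was at -0.04 and did not pass the test. *MT-ND4L* was the one that fell, at 255, 182, and 114 CPM with DMSO and 133, 127, and 147 CPM with mocetinostat (log2 fold change -0.45, edgeR adjusted p = 0.0014). Its DMSO-treated samples spread widely and overlapped the others. Without DMSO replicate 1 the log2 fold change was -0.13 with an adjusted p of 0.232, whereas without DMSO replicate 3 it was -0.72. *MT-ND4*, which overlaps *MT-ND4L* on the same strand, rose (log2 fold change 0.22, edgeR adjusted p = 0.000305). Values are per gene, and genes that overlap need not stand for separate mRNAs. The number of genes that rose was 4 without mocetinostat replicate 3, 12 with *GAPDH* scaling, and 0 without an expression filter. Of all genes tested, 31%, 55.2%, and 10.5% rose in these settings.

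**Figure D5:**
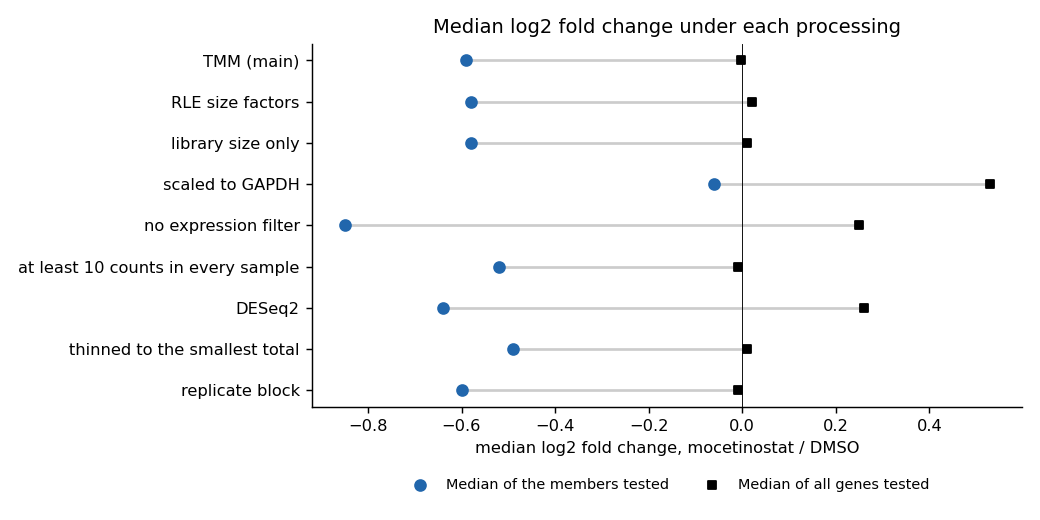
Median log2 fold change, mocetinostat over DMSO (x axis), over the tested mitochondrial ribosomal protein genes (circles) and over all genes tested (squares) under 9 ways of processing (y axis). The median of these genes lies left of that of all genes in every row, at a distance of -0.50 to -1.09 on the log2 scale. Scaling alone hardly changes this distance, and *GAPDH* scaling moves both medians to the right, to -0.06 and 0.53. The set of all genes tested differs between some rows. It held 40504 genes without a filter (distance -1.09) and 21658 with DESeq2 (-0.90), against 13966 in the main fit.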

How the data were processed

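RNA was measured in TC28a2 cells after 24 hours with DMSO or with 2 μM mocetinostat, in 3 samples each. Per the labels and the paper's methods, the authors trimmed single reads, removed ribosomal RNA reads, aligned the rest to GRCh38 with STAR 2.6.1d, and assigned them to genes of Ensembl 98 with featureCounts 1.6.4. The deposited values are whole raw counts per gene, without normalization. Strand setting and treatment of reads that map to several genes are not given in the sources used here. Totals ranged from 1619344 to 11031132, and column names gave the sample of each column.

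Counts were normalized by TMM, filtered with filterByExpr (minimum count 10; 13966 genes kept), and tested with the quasi-likelihood test of edgeR 4.0.16 (limma 3.58.1, R 4.3.3), with treatment as the only term and Benjamini-Hochberg adjustment over all genes. The biological coefficient of variation was 9.3%. CPM values use the TMM factors. Sums were compared by an exact permutation test. Python 3.11.15 with pandas 2.3.3, scipy 1.17.1, and matplotlib 3.10.9 gave summaries and figures. Positions, exon overlaps, and lengths of main transcripts come from GENCODE release 44 (99.5% of genes matched by identifier), and promoters are from RefSeq.

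Named genes are the genes past both thresholds, the highest and lowest of each structural class, the 3 highest and 3 lowest per kilobase, the stalk and *MRPS18* genes, *MRPL58*, *MRPS36*, the 5 other subunits, 5 regulators, the extremes of each other list, and *GAPDH*; any further gene is marked. The genes and lists were chosen with earlier results of these data known. The list of cytosolic ribosomal proteins was added after the data were seen. One cell type marker is not reported here. The fits were tested on simulated counts. Of simulated log2 changes of 0.5, 0.6, and 1, 43.9%, 56.2%, and 87.7% were called in the right direction. Of 13386 unchanged genes, 6 were called. Far fewer genes changed in the simulation than in the data, so these shares need not hold for the data.

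Replicates differed by more than sampling noise (chi-square per degree of freedom from 1.93 to 7.95), so each counted as 1 sample. The alternatives were DESeq2 1.42.0, other scalings, other filters, thinning, glmTreat, the replicate number as a block, values per kilobase, and each sample left out in turn.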

Additional observations from a re-analysis of the deposited data

How the results depend on the processing

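Of the 48 genes that fell, 48 also fell with size factors (RLE) and with library size alone, 45 with a minimum of 10 counts per sample, and 43 with DESeq2. Of all genes tested, 30.6%, 30.8%, 32.8%, and 17.3% fell in these settings. The median log2 fold change was -0.64 with DESeq2 and -0.52 with 10 counts in every sample, where 2 genes rose. It was -0.85 without an expression filter, where 0 rose at an adjusted p under 0.05, 62 fell, and 23 were DRGs. In that setting 13.9% of all genes tested fell and 10.5% rose, and 0 of the genes encoded in mitochondrial DNA rose. Without the filter, TMM factors moved the fold changes of the genes tested otherwise by -0.25. Thinned to the smallest total, 26 fell, 0 rose, and 5 were DRGs, whereas 19.3% of all genes tested fell and 22.6% rose. The median was -0.49, and 31 of the genes in the other nuclear lists fell. Fewer reads are part of that setting. With *GAPDH* scaling, which moved all genes by 0.54, 13 rose, 13 fell, and 0 were DRGs, whereas 55.2% of all genes tested rose and 9.82% fell. The median was -0.06, 21 genes of the other nuclear lists fell, and 12 genes of mitochondrial DNA rose. The LSU and SSU sums had log2 fold changes of -0.04 and -0.07. glmTreat kept 3 DRGs. Restriction to genes with little exon overlap, added after the data were seen, gave 27 that fell and 7 DRGs out of fewer genes. The LSU sum was at -0.55 with size factors and with library size alone and at -0.52 per kilobase, and the LSU to SSU ratio, at 0.03, was 0.09 per kilobase (exact permutation p = 0.1).

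Leaving out single samples, 45 to 49 genes fell, 1 or 2 rose, 10 to 14 were DRGs, and the median lay between -0.63 and -0.59. Of all genes tested, 27.9% to 29.9% fell and 29.6% to 32.5% rose in these fits. Of the protein-coding genes of mitochondrial DNA, 4 to 7 rose, with 4 without mocetinostat replicate 3, and 48 to 56 genes of the other nuclear lists fell. Where 1 condition kept 2 samples, the spread was shared across both.

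Same-numbered samples had correlations of their deviations of 0.00779, 0.0116, and -0.0162, and differently numbered samples from -0.0281 to 0.0255. No pairing by number was seen. With deviations from means of only 3 samples, these values cannot decide whether same-numbered samples shared an experiment. With the replicate number as a block, 48 genes fell, 1 rose, and 10 were DRGs, with a median of -0.60. Of all genes tested, 31% fell and 32.3% rose with the block.

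Signs turned for the following genes. With *GAPDH* scaling, *CHCHD1* was at 0.16, *MRPS18A* at 0.32, *MRPS36* at 0.06, *MT-ND4L* at 0.10, *MYC* at 0.27, and *TFAM* at 0.29. Without a filter, *DAP3* was at -0.11, *MRPL10* at -0.20, and *MRPS33* at -0.22. Thinned, *MRPL10* was at -0.06 and *MRPS18A* at 0.21. Leaving out single samples, *MRPL10* lay between -0.04 (without mocetinostat replicate 1) and 0.08, with -0.03 without DMSO replicate 2, and *MRPS33* between -0.17 (without mocetinostat replicate 2) and 0.14, with -0.12 without DMSO replicate 3. Over all settings, 568 of the values of named genes kept their direction and side of the threshold, 58 lost a call, and 10 gained one. The cause was not tested. Depth limits the calls for genes with few counts, such as *MRPS24* and *MRPS28*.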

Other observations

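Several of the genes share a promoter region with a neighbour. In GENCODE release 44, 17 of the 78 genes (21.8%) had a protein-coding neighbour on the other strand whose start lay within 1000 bases in the divergent direction, compared with 8.54% of all 20033 protein-coding genes. Of 14 such neighbours that were tested, counting *MRPL46* and *MRPS11* as neighbours of each other, 10 fell and 1 rose, where 31.4% and 32.9% of all genes tested did so. The pairs below were chosen after their values were seen.

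*MRPL46* and *MRPS11*, an LSU and an SSU gene, start 63 bases apart on chromosome 15. *MRPL46* measured 8.32, 8.95, and 11.5 CPM with DMSO and 4.16, 4.34, and 6.22 CPM with mocetinostat, a log2 fold change of -0.99 (edgeR adjusted p = 0.0056). *MRPS11* measured 47.9, 50.4, and 55.7 CPM with DMSO and 46.8, 32.2, and 45.2 CPM with mocetinostat, a log2 fold change of -0.26 (edgeR adjusted p = 0.0871). Thus, *MRPL46* fell and *MRPS11* did not pass the test, and the difference between them was not tested.

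*MRPS12* and *SARS2*, the mitochondrial seryl-tRNA synthetase gene, start 181 bases apart, with log2 fold changes of -0.31 (edgeR adjusted p = 0.119) and -1.69 (edgeR adjusted p = 0.000409). *MRPL49* and *FAU*, which encodes a cytosolic ribosomal protein fused to a ubiquitin-like protein, start 6 bases apart and both fell, with log2 fold changes of -0.73 and -0.60. *MRPL27* and *EME1*, an endonuclease subunit of DNA repair, start 13 bases apart and both fell, with -1.12 and -0.78. In contrast, *MRPS18C* fell (-0.71) while *HELQ*, a DNA helicase gene 77 bases away, rose (0.61, edgeR adjusted p = 0.0114). *MRPL57* was at 0.32 (edgeR adjusted p = 0.0881) while *SKA3*, a kinetochore gene 106 bases away, fell by 0.77 on the log2 scale (edgeR adjusted p = 2.76e-05).

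The genes of the cytosolic ribosome, the machinery that translates nuclear mRNAs, were lower by a smaller amount in their median. Of 82 tested cytosolic ribosomal protein genes, 65 fell and 1 rose, against 31.4% and 32.9% of all genes tested, with a median log2 fold change of -0.33, compared with -0.59 for the 74 mitochondrial ones, and 3 were DRGs. With *GAPDH* scaling, 6 fell and 39 rose, whereas 9.82% of all genes tested fell and 55.2% rose. The cytosolic median turned to 0.20, below the 0.53 of all genes tested. Their summed level was 35332, 35097, and 36437 CPM in DMSO replicates 1, 2, and 3 and 28499, 28305, and 28486 CPM in mocetinostat replicates 1, 2, and 3, or 79.8% of the DMSO level (exact two-sided permutation p = 0.1, the smallest possible). The difference between the cytosolic and the mitochondrial genes was not tested.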
